A study of Mus musculus with 8 samples.

Results

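Of the genomic regions that carry strong acetylation of histone H3 at lysine 27 (H3K27ac) in the microglial nuclei of old wild-type (WT) mice, 143 carried less of it in mice with a knockout of Grn (GrnKO). A region was counted as strong where both WT libraries had at least 100 scaled tags, that is aligned reads scaled to 10000000 per library. It was taken as a member where, in addition, the larger of both GrnKO values was at most 0.7 times the smaller WT value. The rule was applied to chromosomes 1 to 19, which hold 125981 of the 129304 listed regions; 14061 of these were strong, and 1.02% of the strong ones met the rule. The members lay nearest to 109 genes, with 6 of them at Grn itself and 137 elsewhere. Because the members were chosen by the H3K27ac values of all 4 libraries, their levels and ratios are a description. No test is used as support for the loss at them.

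Acetylation of H3K27 is deposited by the acetyltransferases p300 and CBP and marks active promoters and enhancers. Enhancers lie at a distance from the start sites they act on, often in introns or between genes, and in microglia many of them are bound by the myeloid transcription factor PU.1 together with partners of the IRF, AP-1, MEF2 and SMAD families. Grn encodes progranulin, a secreted glycoprotein that is delivered to lysosomes and cleaved there into granulins, and microglia are among its main sources in the brain.

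H3K27ac and input libraries came from brain nuclei of C57BL/6 mice aged 2 years, in 2 genotypes, WT and GrnKO. The nuclei were fixed and sorted as positive for PU.1 and negative for the oligodendrocyte-lineage factor OLIG2 and the neuronal protein NEUN. Each replicate pooled nuclei of 2 mice, and each genotype had 2 replicates, so that 4 H3K27ac and 4 input libraries (chromatin without immunoprecipitation) were used. The label gives the knockout without a cell type or inducible driver, and which exons it removes is not given in the sources used here. In such bulk nuclei, a lower share of one kind of nucleus and less acetylation per nucleus cannot be told apart.

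The H3K27ac libraries held 15491642.5 to 20030832 tags and the inputs 4078179 to 14415969. WT replicate 1 stood apart, with 49.4% of its tags in the listed regions against 63.3% to 65.7% in the other H3K27ac libraries. It was the lower of the WT values at 114 members (79.7%) and at 91.6% of all strong regions, so it set the comparison at most of them. Start-site regions of all 10 microglial marker genes reached 100 scaled tags in both WT libraries, with summed values of 3926 and 5558 in WT and 4403 and 4433 in GrnKO. Marker sums stayed at or below 3.99 in every library for monocytes, B cells and neurons, of whose 4 to 6 markers at most 2 had a listed start-site region, and no T or NK cell marker had one. Neutrophil markers, 1 of 4 with a listed region, summed to 0 and 5.43 in WT and 22.02 and 20.22 in GrnKO. Border macrophage markers summed to 97.47 and 153.53 in WT and 178.29 and 139.28 in GrnKO, those of astrocytes to 60.36 to 95.11 and those of oligodendrocytes to 57.17 to 69.07 over the 4 libraries. The part of these cells in the results was not tested. No gene of these marker lists was the nearest gene of a member.

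Start sites within members are shown first, since the promoter sequence is the sequence context that a reference of the table's build gives. In 6 cases a member held the whole stretch of 250 bases before a start site in RefSeq annotation (GRCm38.p6). The coordinates of the table, labelled mm10 in the submitters' processing notes, matched that build: 94.3% of 21807 regions near a start site implied a start within 50 bp of one in the promoter table. Both strands were searched for GGAAGTG (the core of PU.1 and other ETS factors), TGANTCA (AP-1), CACGTG (the E-box of the MiT/TFE family, which includes the lysosomal regulator TFEB), GAAA repeated after any 2 bases (IRF), CTA and TAG with any 4 bases between them (MEF2), TTGCNNAA (C/EBP), TGTGGTT (RUNX), CAGACA (SMAD) and the CTCF core. Capitals below mark the matches. The stretches of 4 protein-coding genes and 1 non-coding RNA gene are printed; their start sites lie inside members named by those genes.
Grn, chr11:102430257-102430506, plus strand: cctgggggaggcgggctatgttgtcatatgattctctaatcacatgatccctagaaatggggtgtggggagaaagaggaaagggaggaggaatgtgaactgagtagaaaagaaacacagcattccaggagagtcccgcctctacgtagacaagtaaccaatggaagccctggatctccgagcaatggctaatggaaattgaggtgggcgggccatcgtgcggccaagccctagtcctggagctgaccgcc
Slamf8, chr1:172590569-172590818, minus strand: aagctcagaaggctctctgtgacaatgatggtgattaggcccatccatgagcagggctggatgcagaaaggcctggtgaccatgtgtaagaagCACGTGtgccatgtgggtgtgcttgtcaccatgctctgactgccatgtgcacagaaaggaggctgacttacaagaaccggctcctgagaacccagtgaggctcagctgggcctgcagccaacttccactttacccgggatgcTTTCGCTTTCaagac
Gatm, chr2:122611278-122611527, minus strand: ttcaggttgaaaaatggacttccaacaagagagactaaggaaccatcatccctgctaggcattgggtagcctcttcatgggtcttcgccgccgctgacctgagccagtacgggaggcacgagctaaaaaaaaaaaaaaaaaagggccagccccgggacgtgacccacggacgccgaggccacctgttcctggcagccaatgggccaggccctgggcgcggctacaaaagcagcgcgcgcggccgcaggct
Smchd1, chr17:71475344-71475593, minus strand: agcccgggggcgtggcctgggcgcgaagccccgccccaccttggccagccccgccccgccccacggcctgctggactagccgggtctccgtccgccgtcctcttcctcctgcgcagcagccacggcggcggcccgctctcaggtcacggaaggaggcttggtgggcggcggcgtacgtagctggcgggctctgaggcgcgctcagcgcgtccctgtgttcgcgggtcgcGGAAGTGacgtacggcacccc
1600010M07Rik, chr7:110006647-110006896, minus strand: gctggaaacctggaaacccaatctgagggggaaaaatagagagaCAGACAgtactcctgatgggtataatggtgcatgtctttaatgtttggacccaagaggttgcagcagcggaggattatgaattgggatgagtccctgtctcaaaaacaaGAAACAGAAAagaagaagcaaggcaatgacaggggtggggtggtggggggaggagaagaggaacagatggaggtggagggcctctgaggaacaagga

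The Grn and Gatm stretches, and that of LOC115487747 inside the member of 2610035D17Rik, held none of the 9 motifs. Slamf8, a SLAM-family receptor of myeloid cells, held CACGTG, present in 6.02% of all 31396 promoter stretches, and an IRF match, present in 2.98%. The IRF match also occurred before 1600010M07Rik, which in addition held CAGACA, found in 16.9% of all stretches. The member there had 120.39 and 138.88 scaled tags in WT against 75.85 and 79.63 in GrnKO. Smchd1, a chromatin protein of X inactivation, held GGAAGTG, found in 8.67%. The motifs shared no overlap within these stretches, and each match is a match of letters only. Median GC content was 54.8% in the 6 stretches and 52.4% in all.

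The 6 Grn members formed the deepest loss and the cluster with the most regions. The region with the highest WT signal, in the promoter at chromosome 11, 102429291 to 102430091, had 584.51 scaled tags in the first WT replicate and 572.61 in the other, and 7.34 and 6.49 in GrnKO. The next region, which holds the start site and the printed promoter stretch, had 294.35 and 310.85 in WT and 0 in both GrnKO libraries. The 3 following regions in intron 1 of 12 were also at 0 in both GrnKO libraries, with WT values of 204.63 and 192.59, of 196.23 and 232.19, and of 113.61 and 163.84. Of the 6 members, 4 thus had no H3K27ac tag in either GrnKO library.

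Against a floor of 3 tags, which is 1.83 scaled tags in GrnKO replicate 1 and 1.498 in replicate 2, these 4 regions were at least 160-fold, 105-fold, 107-fold and 61.9-fold lower, in order along the gene, by the smaller WT value over the larger floor. The outermost member, 1.024 kb upstream of the start, retained 112.85 and 112.33 scaled tags in GrnKO against 482.84 and 453.8 in WT. A region in intron 7, outside the rule, went the other way, with 0.65 and 6.24 in WT against 36.09 and 49.92 in GrnKO. Of the 6 members, 2 had no tag in any input and 3 none in the GrnKO inputs. WT input replicate 1 had 71.11 scaled tags at the first intron 1 member and 0 at the other 5, and WT input replicate 2 had 6.42 at the last. GrnKO input replicate 1 had 2.77 at the outermost member, and GrnKO input replicate 2 had 2.04, which is 1 tag, at each of the last 2 members, which overlap. Counts this low do not show whether the sequence at the start site is present in the GrnKO genome, which was not tested further. The 46 other strong regions within 1 Mb of the start of Grn held no member, and the 4 further members within 5 Mb were those at Pecam1 and 1 at Nol11.

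**Figure D1:**
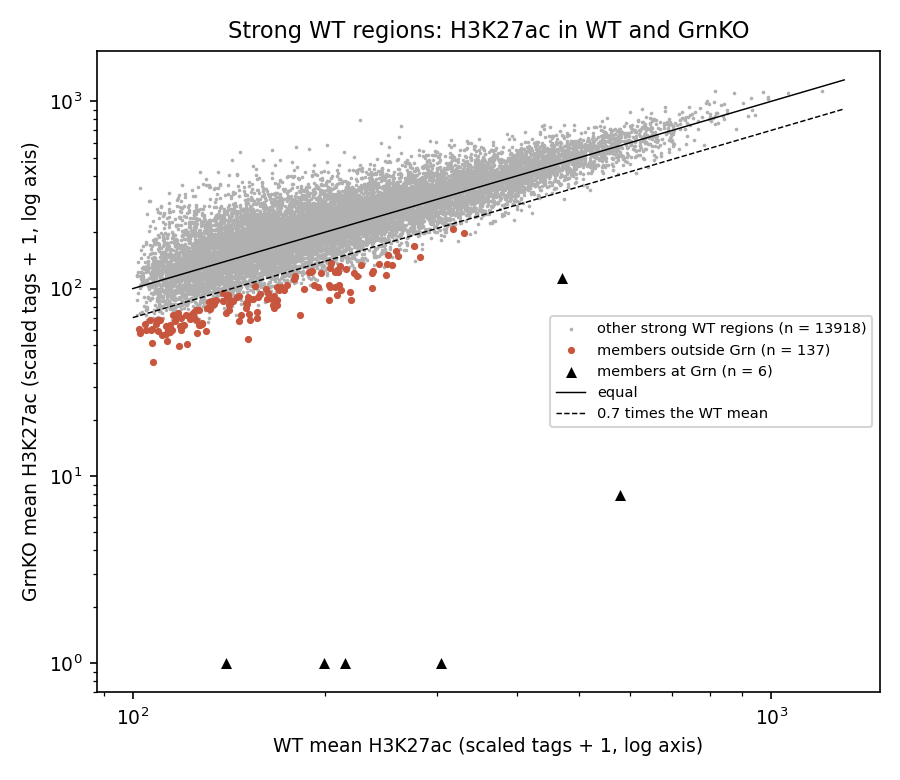
Mean H3K27ac of each strong WT region in WT (x) and GrnKO (y), in scaled tags + 1 on log axes, with 13918 other strong regions in grey, the 137 members outside Grn in red and the 6 at Grn as black triangles. Members outside Grn lie below the dashed line of 0.7 times the WT mean, at ratios of means from 0.350 to 0.683, and thin out to the right, and 4 Grn regions sit at 0 tags.

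Outside Grn the loss was partial. The 137 members had WT values of 100.38 to 303.39 (median 140.08) in replicate 1 and 100.63 to 353.71 (median 159.5) in replicate 2, and GrnKO values of 39.15 to 206.74 (median 83.19) and 40.44 to 208.93 (median 86.37). No member outside Grn was without signal in GrnKO. Their median ratio of the GrnKO mean to the WT mean was 0.566, against 1.06 over all strong regions. By the ratio the rule used, 5 of them were at or below 0.5, 33 between 0.5 and 0.6, 41 between 0.6 and 0.65 and 58 between 0.65 and 0.7.

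The share of members was smaller at higher WT levels, which the rule also used, so that this too is a description. Of strong regions with a WT mean of 100 to 150 scaled tags, 68 of 3471 (1.96%) were members, and of those at 300 or more, 5 of 3203 (0.156%). Just inside the limit stood regions at Smchd1 (0.6978), 1700030L20Rik (0.6988) and Ywhah (0.6992), and just outside it regions at Pus10 (0.7005) and Erh (0.7005). Both GrnKO values lay below both WT values at 14.4% of all strong regions, so the members are the far part of a larger group of regions with non-overlapping values. In the whole table, limma after TMM scaling, with Benjamini-Hochberg adjustment, called 2354 of 80728 tested regions (2.92%) lower and 5488 higher in GrnKO, or 9.71% in either direction. In the deposited scaling, in which the members are defined, the same fit called 333 lower. With TMM scaling it called 361 and 759 lower without GrnKO replicates 1 and 2 and 4611 and 4113 without WT replicates 1 and 2. All 143 members passed its filter on low values and were among the lower calls, which the rule's use of the same contrast makes uninformative. The mirrored rule, for regions strong in GrnKO, was met by 2721 of 18373 (14.8%) in the deposited scaling. With TMM scaling, used for the limma calls, the rule was met by 783 of 16012 regions (4.89%) and the mirrored rule by 1769 of 16993 (10.4%). Without WT replicate 1, whose low values set most comparisons, 1663 regions met the rule, and without WT replicate 2, 6822 met the mirrored rule.

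Among genes of the homeostatic microglial program, which are those that mark microglia of the healthy brain, 4 of the 43 with a strong region had members: Selplg, Nav3, Slc2a5 and Adgrg1. Of the list's 512 strong regions, 6 were members (1.17%), close to the 1.02% of all strong regions. The median ratio over the list was 1.00, and 19.5% of its regions had both GrnKO values below both WT values, against 14.4% overall. Selplg encodes the P-selectin ligand PSGL-1. Its member at chromosome 5, 113827938 to 113828738, in intron 1, had 236.58 and 325.77 scaled tags in WT and 138.24 and 155.76 in GrnKO. The overlapping region had 198.17 and 274.51 against 109.49 and 135.54, and a separate one in the same intron had 131.04 and 150 against 82.88 and 79.38. The other 9 of the 12 strong Selplg regions kept more of their signal, so that the highest ratio at the gene was 0.897 and the median 0.762.

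Nav3 encodes a microtubule-associated protein. Its member, 94.775 kb from the start site at chromosome 10, 110094594 to 110095394, was the strongest but 1 outside Grn, with 303.39 and 328.76 in WT and 206.74 and 208.18 in GrnKO. Slc2a5 encodes the fructose transporter GLUT5. In its intron 2 WT values of 247.88 and 266.91 stood against 145.27 and 171.98 in GrnKO. At Adgrg1, which encodes the adhesion receptor GPR56, an intron 1 member had 142.66 and 180.65 in WT and 93.89 and 93.36 in GrnKO. Only 1 of the 9 strong regions each of Nav3 and Adgrg1 was a member, and 1 of the 2 of Slc2a5. Both GrnKO values lay below both WT values at 6 of the 9 for each of Nav3 and Adgrg1, and at both for Slc2a5. The median ratios were 0.772 at Nav3 and 0.628 at Adgrg1. These counts and medians include the member, which the rule places below. At Nav3 they also include regions that overlap the member and share its tags, at ratios of 0.688 and 0.695.

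At Pecam1 each of the 3 strong regions that the table assigns to it by nearest start was a member. The gene encodes CD31, an inhibitory adhesion receptor of leukocytes and endothelium. In intron 11, 35.19 kb from the start site at chromosome 11, 106679691 to 106680491, WT replicates had 126.84 and 174.41 scaled tags and GrnKO replicates 53.52 and 51.92. In intron 12, 40.5 and 39.815 kb from the start site, a pair of overlapping members had 187.52 and 215.92 in WT against 72.18 and 100.35, and 123.62 and 157.05 against 68.2 and 84.37. The rule itself keeps the genotypes apart at these 3 regions. The other 7 listed Pecam1 regions that overlap no member, all below the level of a strong region, summed to 131.36 and 127.48 in WT and 56.27 and 66.15 in GrnKO. At the Pecam1 start-site region the genotypes overlapped, with 35.5 and 46.38 in WT and 30.89 and 39.19 in GrnKO. Start-site regions of the 6 endothelial markers summed to 117.48 and 126.14 in WT and 225.71 and 254.11 in GrnKO, with Kdr alone at 100 or more in both WT libraries and 4 of the 6 under 10 or not listed near their starts. The sum is thus mostly that of 1 gene, the sort took PU.1-positive nuclei, and the part of endothelial nuclei in the Pecam1 values was not tested.

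From here to the end, every gene named that ranks neither among the 12 lowest ratios, the 8 highest WT means and the 8 largest loci nor on a gene list was picked after its values were seen, and the order by known role carries no count or test of a theme. At Cd14, the co-receptor for lipopolysaccharide, the member in exon 2 had 257.24 and 240.33 in WT and 130.28 and 139.78 in GrnKO, while the overlapping start-site region had 362.13 and 381.65 against 268.52 and 312.02. Cd14 held the 1 member among 94 strong regions of an inflammatory list (1.06%), near the 1.02% of all strong regions. The start-site member of Slamf8 had 138.46 and 136.44 in WT and 94.81 and 92.86 in GrnKO. At Gpr35, a G protein-coupled receptor, the start-site member went from 112.32 and 104.97 to 51.38 and 64.9. In Pirb, which encodes a receptor for MHC class I, intron 9 had 103.93 and 134.81 against 54.74 and 70.64.

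The members at Il7r and Ifngr1, both cytokine receptor genes, were intergenic. The region 35.336 kb from the start of Il7r, the interleukin-7 receptor alpha chain, had 101.34 and 122.88 in WT against 44.35 and 58.16 in GrnKO. The region 3.022 kb from the start of Ifngr1, the ligand-binding chain of the interferon gamma receptor, had 105.54 and 106.06 against 63.31 and 55.66. Both members of Clec2h, a C-type lectin gene of the natural killer cluster on chromosome 6, were intergenic, and the lower of them, at 128643776 to 128644576, had 113.93 and 144.31 against 59.03 and 57.41. The start sites of the T and NK cell markers are not among the listed regions and so were not measured, and those of B cells summed to at most 2.26.

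Of the lysosomal list, with 218 strong regions of 36 genes, 6 were members (2.75%, against 1.02% of all strong regions), all at Grn. The genes that follow are not on that list. Fam91a1 encodes a factor that captures vesicles at the Golgi. Its intron 1 held a pair of overlapping members, the lower of which, at chromosome 15, 58416475 to 58417275, had 152.99 and 210.76 in WT against 72.18 and 70.64 in GrnKO. The region assigned to 0610039K10Rik lies in exon 2 of Serinc3, a multipass membrane protein, at chromosome 2, 163638907 to 163639707. It had 115.22 and 126.13 in WT and 55.66 and 43.18 in GrnKO. Atp6v0a2 encodes a membrane subunit of the proton pump that acidifies endosomes and the Golgi, and its start-site member had 124.58 and 125.05 against 69.73 and 81.87. A second member assigned to that gene lies in intron 13 of Tctn2 and had 203.01 and 226.77 against 134.57 and 117.07.

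The member assigned to Ywhah at chromosome 5, 32976329 to 32977129, lies in intron 39 of 42 of Depdc5, whose product is a subunit of the GATOR1 complex that restrains mTORC1 at the lysosome. It had 218.5 and 227.85 in WT and 115.3 and 116.57 in GrnKO, with the replicates of each genotype within 10 scaled tags of each other. A region assigned to Lamtor3, a subunit of the Ragulator complex on lysosomes, lies in intron 4 of the adaptor gene Dapp1 and had 202.69 and 217.81 against 130.59 and 132.8. The Lamtor3 start-site region, which is not strong, had higher values in GrnKO, 70.34 and 66.15 against 27.11 and 45.57 in WT, and that of Dapp1 overlapped between genotypes, with a ratio of 0.966. The median ratio of the lysosomal list was 1.19, above the 1.06 of all strong regions, and 9.63% of its regions had both GrnKO values below both WT values, against 14.4% overall.

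By the ratio of the rule, the larger GrnKO over the smaller WT value, Rspo1, an R-spondin that enhances Wnt signalling, was lowest outside Grn at 0.394, with 102.64 and 110.67 in WT and 39.15 and 40.44 in GrnKO at chromosome 4, 124990156 to 124990956, in intron 1. The WT mean was 106.7 ± 5.7 and the GrnKO mean 39.8 ± 0.91 (SD, n = 2 each). By the ratio of means the Pecam1 region in intron 11 was lower, at 0.350 against 0.373. Src, the tyrosine kinase, had 150.73 and 127.22 in intron 1 in WT and 84.41 and 61.41 in GrnKO. Gpsm1, a modulator of G protein signalling, had 147.5 and 163.29 against 69.73 and 78.88 in intron 9. In Frmd4a, a FERM-domain scaffold gene, intron 1 had 225.28 and 292.41 against 156.58 and 140.28, and it was 1 of 38 strong regions assigned to that gene. At Ptp4a3, a protein tyrosine phosphatase gene, a member in the first exon had 178.48 and 240.06 against 92.67 and 114.82.

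Akirin2, a nuclear protein with roles in inflammatory transcription, was the nearest gene of a pair of members 120.976 and 119.759 kb away on chromosome 4. The stronger, at 34429239 to 34430039, had the highest WT mean outside Grn, with 303.39 and 353.71 in WT against 183.19 and 208.93 in GrnKO. The other, at 34430456 to 34431256, had 162.67 and 167.9 against 64.84 and 90.11. In intron 3 of Foxn3, a forkhead repressor gene, 123.791 kb from the start, WT values of 104.9 and 129.66 stood against 53.21 and 43.43 in GrnKO. Bcl11a, a zinc-finger repressor, had an intergenic member 89.992 kb away with 168.8 and 253.08 against 99.39 and 95.6. Klf3, a Krüppel-like repressor, had a member in intron 1 with 185.26 and 190.15 against 122.33 and 121.81. On a list of myeloid and general transcription factors, 44 genes had 435 strong regions, and none was a member, where 1.02% of all strong regions were.

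Genes of metabolism and transport included Hfe, which encodes an MHC class I-like protein that binds the transferrin receptor. Its stronger member, at chromosome 13, 23717365 to 23718165, had 274.66 and 274.23 in WT and 157.2 and 176.48 in GrnKO, and the other 124.58 and 103.62 against 63.92 and 54.17. Its other 2 strong regions, with ratios of 0.725 and 0.743, also had both GrnKO values below both WT values. The one at 0.725 overlaps a member and shares its tags. Gatm encodes the first enzyme of creatine synthesis, and its start-site member had 109.09 and 135.08 in WT and 67.59 and 68.89 in GrnKO. Cyp27a1 encodes a mitochondrial sterol 27-hydroxylase, and the member in its exon 1 had 111.35 and 115.55 against 69.42 and 57.16.

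**Figure D2:**
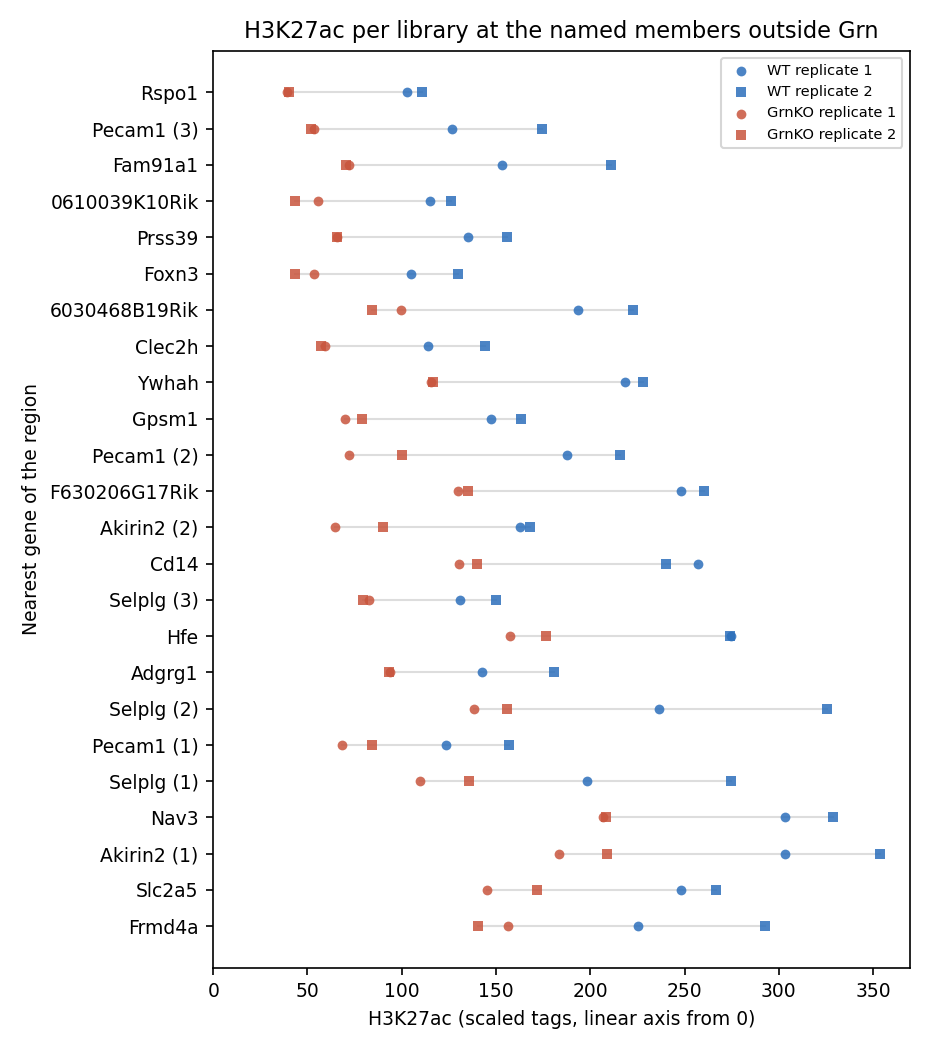
H3K27ac in scaled tags (x, linear from 0) in each of the 4 libraries at the members outside Grn with the lowest ratios, the highest WT means or a place on a gene list, labelled by nearest gene (numbered where a gene has several, in order of decreasing ratio). WT points (blue) lie to the right of GrnKO points (red) in every row, as the rule requires, and the distance between both WT points is widest at Selplg.

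In all, 27 members had a non-coding RNA as nearest gene and 1 a pseudogene, so that 80.4% were nearest to a protein-coding gene, against 86.7% of strong regions. The 3 overlapping members of Gm33619 lie 30558 to 31269 bp from Myb, the nearest protein-coding gene and a regulator of blood progenitors, at chromosome 10, 21191542 to 21193053. Their values were 126.84, 199.79 and 188.81 in WT replicate 1, 184.45, 271.79 and 248.19 in WT replicate 2, 58.11, 83.8 and 64.84 in GrnKO replicate 1, and 79.38, 115.32 and 107.58 in GrnKO replicate 2. Since these regions overlap, they share tags and count as 1 site. The region of F630206G17Rik, 212.571 kb from that start on chromosome 11 with Clint1 as the nearest coding gene, had 247.88 and 260.13 in WT and 129.67 and 135.04 in GrnKO. At 6030468B19Rik, both strong regions were members, with 193.65 and 222.43 against 99.39 and 84.37 at the one lower by the ratio of the rule. By the ratio of means the other was lower, at 0.433 against 0.442. The intergenic pair near 4930591E09Rik, whose nearest coding gene is Rfpl4b at 607725 bp or more, had 226.25 and 227.04 against 131.2 and 134.79, and 176.55 and 123.69 against 85.02 and 78.63. The lower of 2 members assigned to Prss39, 11521 bp from the phosphatase gene Ptpn18, had 134.91 and 155.97 against 65.75 and 65.9.

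Joined where they lay within 10 kb, they formed 112 loci, of which 88 held 1 member, 20 held 2, 3 held 3 (at Pecam1, Selplg and Gm33619) and 1, at Grn, held 6. Overlap with another member was seen for 30 members, so neighbouring members are often not separate measurements. By chromosome the share of strong regions that were members ran from 0.369% on chromosome 14 (2 of 542) to 2.04% on chromosome 18 (8 of 392), and on chromosome 11 without Grn it was 1.10%.

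At 38 of the 112 loci every strong region within 10 kb was a member, and at the other 74 at least 1 strong region was not. Of the strong regions that overlapped a member without being one, 42 of 44 had both GrnKO values below both WT values, with a median ratio of 0.666, and they share tags with the member. Of the 191 strong regions within 10 kb that were clear of members, 78 (40.8%) had both GrnKO values below both WT values and 9 (4.71%) above, with a median ratio of 0.866 and a range of 0.554 to 1.85. Over all strong regions these shares were 14.4% and 30.2%. The neighbours thus lay between the members and the strong regions at large, as the cumulative plot of ratios shows.

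**Figure D3:**
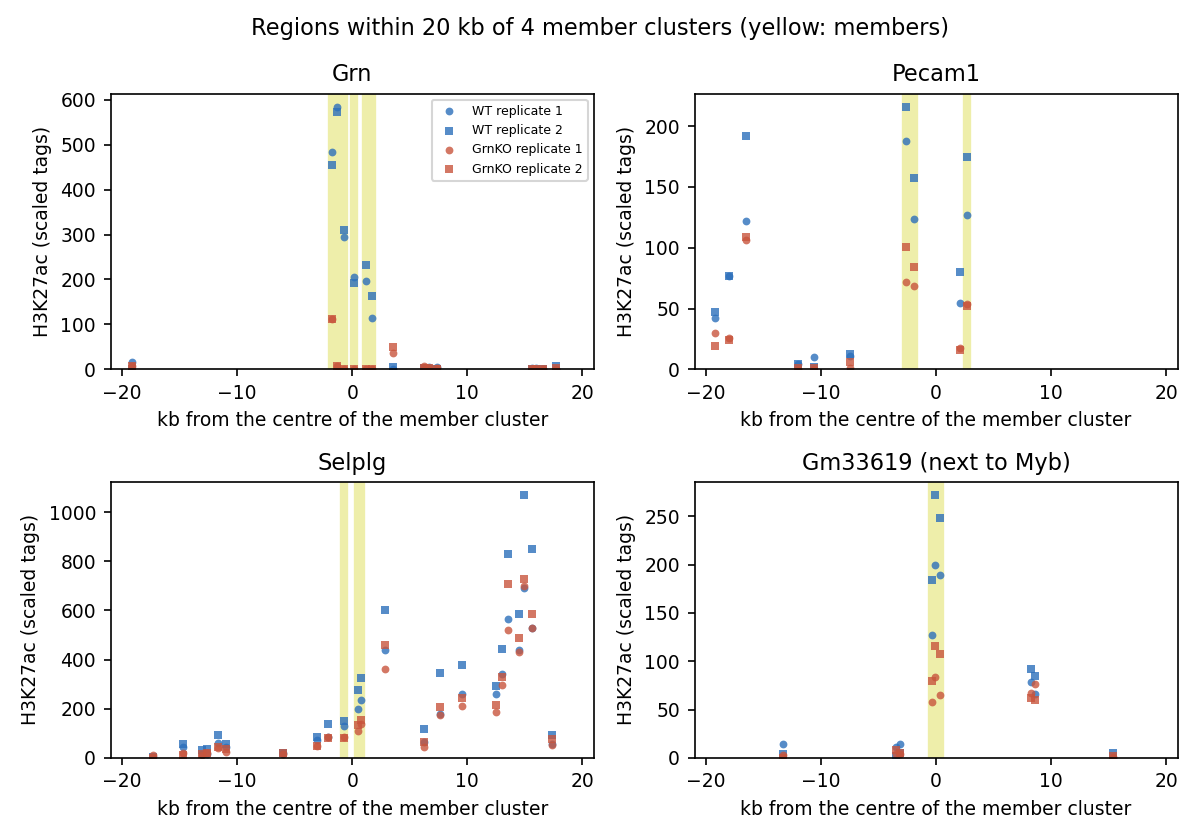
H3K27ac in scaled tags (y, from 0) of every listed region within 20 kb of the centre of the member cluster at Grn, Pecam1, Selplg and Gm33619, against distance in kb, with WT in blue, GrnKO in red and member positions shaded. At Pecam1 and Gm33619 the highest WT values of the window, 215.92 and 271.79, are at members, whereas at Selplg stronger regions up to 1069 scaled tags are not members.

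Members lay farther from start sites than strong regions at large. Their median distance to the nearest start was 12.5 kb, against 8.70 kb for all strong regions and 11.011 kb for all regions on chromosomes 1 to 19. Within 1 kb of a start lay 21 members (14.7%), or 18 (13.1%) without Grn, against 25.6% of strong regions. More than 50 kb away lay 36 members (25.2%), against 15.0%, and more than 100 kb away 18 (12.6%), against 5.95%. The farthest were the overlapping pair in intron 19 of Bbs9, a gene of the ciliary BBSome complex, at up to 281.713 kb, with 169.12 and 213.75 in WT and 103.06 and 104.09 in GrnKO at the stronger one. The shares were not matched on WT level.

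By the table's annotation 71 members (49.7%) were intronic, 27 of them in intron 1, and 52 (36.4%) intergenic, against 46.4% and 29.9% of strong regions. Promoter annotation covered 13 members (9.09%) and 16.7% of strong regions. The rest were 5 in exons, 1 in a 5′ untranslated region and 1 at a transcript end. Of the 91 members that the annotation places in a gene or its promoter, 19 were placed in another gene than the one with the nearest start. Examples are those in Depdc5, Serinc3 and Dapp1. The member near Dlx2 was matched to Mir5098, whose listed start-site region lies on chromosome 5, so that match is doubtful. The score that the authors gave each region in the merged peak list was at its maximum of 1000 for 76 members (53.1%) and for 69.6% of strong regions.

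**Figure D4:**
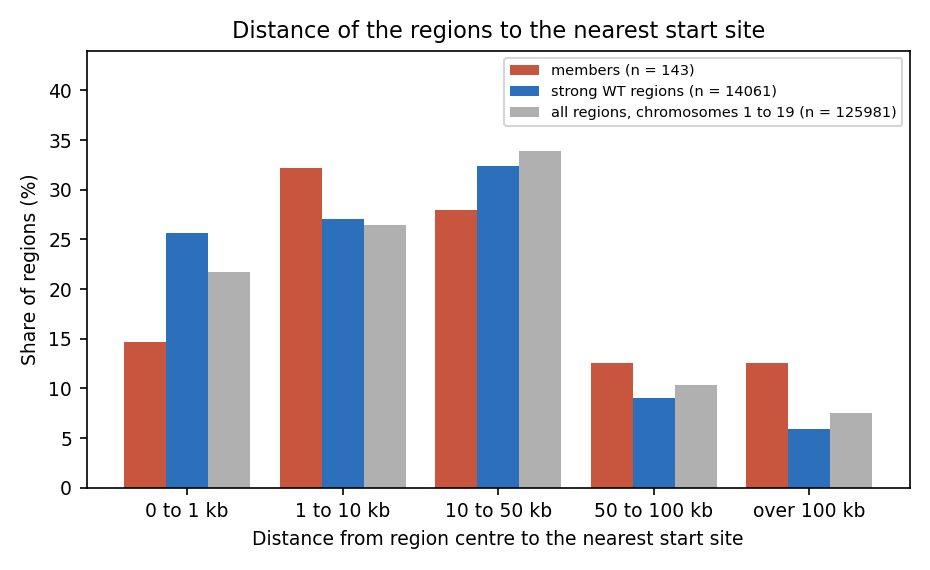
Share of regions (y, %) in 5 bands of distance between the region centre and the nearest start site (x) for the 143 members, the 14061 strong WT regions and all regions on chromosomes 1 to 19. Members hold a smaller share within 1 kb (14.7% against 25.6%) and a larger share over 100 kb (12.6% against 5.95%) than strong regions.

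The start sites of the genes next to distal members were examined in the same libraries, some of them at regions that overlap a member. Distal members outside Grn, those more than 1 kb from the nearest start in the table's annotation, numbered 119. Of their nearest genes, 34 had a strong region at the start site. The median ratio there was 0.858, with a range of 0.433 to 1.36, and in 14 of the 34 (41.2%) both GrnKO values lay below both WT values, while in 5 (14.7%) they lay above. For all 1995 genes with a strong start-site region the median was 1.08, with 11.4% below and 33.0% above. Host genes other than the nearest gene had 5 strong start-site regions, with a median ratio of 0.966, 1 below and 1 above. These start-site values come from the same 4 libraries that chose the members. Of the 34 regions, 1 is itself a member, and those of Cd14, Fam91a1 and Atp6v0a2 overlap a member and share its tags. All of these have both GrnKO values below both WT values. Others lie close to a member, so the shares are given as a description.

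At Nav3 the start-site region had 124.91 and 152.44 scaled tags in WT and 67.89 and 101.34 in GrnKO, a loss like that of its distal member. At Slco2b1, an organic anion transporter gene, it had 535.77 and 723.43 against 449.26 and 530.93, and at Kcnk6, a potassium channel gene, 261.43 and 304.89 against 217.14 and 239.38. Other start sites went the opposite way. At Mbnl1, an RNA-binding splicing regulator, the start-site region had 152.02 and 225.68 in WT and 241.3 and 246.37 in GrnKO, while its member in intron 2 had 110.06 and 113.11 against 63.92 and 60.66. At Notch2, a receptor gene, the start-site region had 139.75 and 140.78 against 168.21 and 160.75, and the intron 1 member 109.41 and 125.59 against 59.64 and 65.15. At Adgrg1 the start-site values overlapped between genotypes, with 120.39 and 157.33 in WT and 145.57 and 201.44 in GrnKO. Lower distal acetylation was therefore accompanied by lower, higher or overlapping start-site values, depending on the gene.

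**Figure D5:**
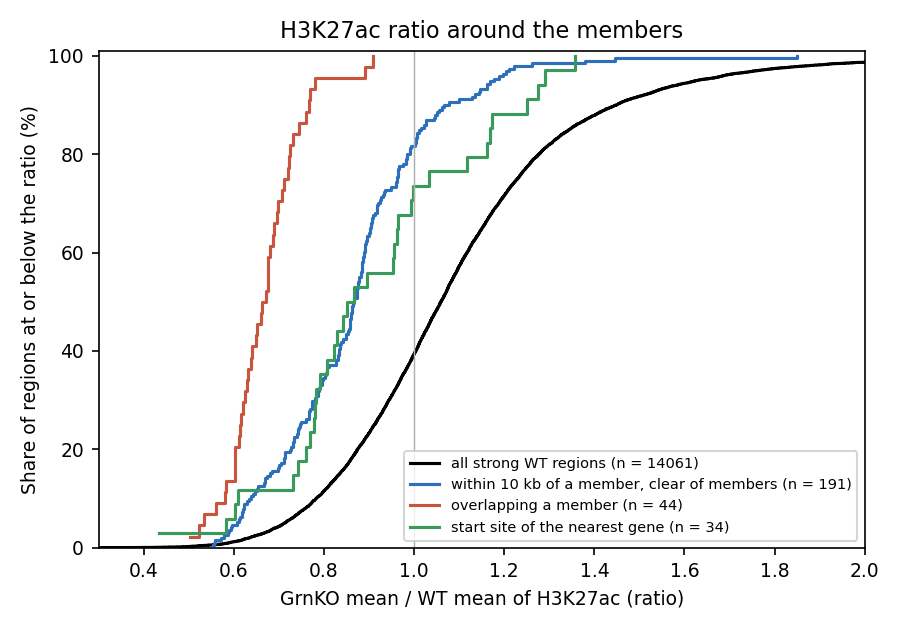
Cumulative share (y, %) of regions at or below a given ratio of GrnKO mean to WT mean H3K27ac (x) for all strong WT regions, for strong regions overlapping a member or within 10 kb and clear of members, and for strong start-site regions of the nearest genes of distal members. The 3 sets around members lie to the left of all strong regions, with medians of 0.666, 0.866 and 0.858 against 1.06. The start-site set includes 1 member and regions that overlap a member.

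Of the 1563 strong regions of genes on any of the 10 gene lists, 16 were members (1.02%, the share of all strong regions), and 13.2% had both GrnKO values below both WT values, against 14.4% overall. On the list of disease-associated microglia, the program of Apoe, Cst7 and related genes, none of 129 strong regions of 27 genes was a member, the median ratio was 1.39, and 0.775% had both GrnKO values below both WT values. On the adhesion and migration list, 6 of 119 strong regions (5.04%) were members, all at Pecam1 and Selplg, and 21.8% had both GrnKO values below. The latter share includes the 6 members, which the rule places below, and the members of each gene include an overlapping pair. The lists of antigen presentation (14 strong regions), complement (41), leukocyte signalling and actin (246) and the interferon response (8) held none, where 1.02% of all strong regions were members. Their median ratios were 0.948, 1.01, 1.05 and 1.00, with 35.7%, 12.2%, 10.98% and 37.5% of regions below in both GrnKO libraries against 14.4% of all strong regions; 5 of 14 and 3 of 8 regions stand behind the shares of antigen presentation and interferon response.

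The inputs, which the rule did not use, gave little signal at the members. Of the 143 members, 126 and 83 had no tag in WT input replicates 1 and 2, and 71 and 121 in the GrnKO inputs. Limma on log2(value + 1) of the inputs, with Benjamini-Hochberg adjustment, called 0 of 3052 tested regions (0%) different between the genotypes, and 481 had an unadjusted p under 0.05; no other tool was run on the inputs. Without GrnKO input replicate 2, 6711 of 26113 tested regions were called, all higher in GrnKO, and without any other input library 0. Only 3 members had enough input signal to be tested, both regions in intron 6 of Prex1 and the one in Dapp1, and 1 of them, in Prex1, had an unadjusted p of 0.0234 and an adjusted p of 0.210. Pile-ups of 50 or more scaled tags in a single input library were present at 7 members. The largest were in WT input replicate 1, at Dapp1 (147.12), Prex1 (139.77 and 115.25) and the region assigned to Dlx2 (115.25). After the input of the same pool was subtracted, 131 members still met the ratio limit and 12 did not.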

How the data were processed

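Nuclei, libraries and groups are as described above. Per the file headers, the deposited values are a signal: tags in regions of 800 bp from merged ATAC-seq peaks, a list that carries labels of other knockout lines, scaled by the authors to 10000000 tags per library. The score column of that list was used as deposited, per the file headers, as was the annotation, and the distance to the nearest start, which the authors deposited in bp (other). The submitters' processing notes name Bowtie2, HOMER, DESeq2 and mm10; versions and treatment of duplicate reads are not given in the sources used here. Values times library totals gave whole read ends, at 2 per tag, for 100% of values within 0.0051 scaled tags.

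The rule was applied to the values as deposited. The main regions were named by rule: all at Grn, the 12 lowest ratios and the 8 highest WT means outside Grn (1 per gene), the 8 largest loci, members on 10 gene lists and the 3 regions on each side of the limit, of which 1 is not reported here. Other genes were picked after their values were seen. Members and lists were chosen with earlier results of these data known. The background over all regions came from limma 3.58.1 (R 4.3.3, trend) on log2(value + 1) after TMM scaling with edgeR 4.0.16, edgeR's filter at a minimum of 10, at an adjusted p of 0.05, and without TMM for the inputs; the design written in advance named edgeR's count test for a file of raw counts, which this is not. The fit was checked on simulated data. Replicates are separate pools, and an SD measures the spread between them. The floor (3 tags) covers counting error only, and reads had no molecular identifiers.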

Additional observations from a re-analysis of the deposited data

Results flagged for a closer look

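Chromosomes outside 1 to 19 were not searched for members, and 4 regions there met the same limits on values, all on chromosome X, out of 177 strong regions (2.26%), 163 of them on X. Near Rp2, which encodes a GTPase-activating protein of ciliary transport, the values were 100.05 and 113.93 scaled tags in WT and 67.28 and 56.16 in GrnKO. In intron 1 of Idh3g, a subunit gene of mitochondrial isocitrate dehydrogenase, they were 122.97 and 167.63 against 85.02 and 84.37. A region near Gpr165, an orphan receptor gene, had 126.2 and 143.49 against 80.74 and 64.15. In the last exon of Tmsb4x, which encodes the actin-binding peptide thymosin beta 4, they were 171.38 and 149.73 against 103.06 and 98.35. These values were also selected by the readout and have no test, and the sex of the pooled mice was not used here.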

How the results depend on the processing

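The number of members followed the limits: 406 at a minimum of 50 scaled tags, 24 at a minimum of 200, and 11, 44 and 415 at ratio limits of 0.5, 0.6 and 0.8, against 143. It was 613 with group means in place of the extremes. TMM scaling, which raises WT replicate 1 (factor 0.825), gave 783 members in 539 loci and a median ratio of 0.478, and kept 141 of the 143; the 2 lost, at Dlx2 and in Prex1, fell under 100 scaled tags in WT replicate 2. Leaving out 1 library, which leaves the rule fewer values to meet, gave 209 to 1663 members, all with the 143 included, in 162 to 1060 loci. The count was 1663 without WT replicate 1, 209 without WT replicate 2, 262 without GrnKO replicate 1 and 403 without GrnKO replicate 2. The median ratio then ran from 0.544 to 0.587, and was 0.534 after input subtraction. The share within 500 bp of a start was 9.09% and within 2000 bp 22.4%; at 1000 bp it stayed between 13.6% and 17.2% under every other setting run. Alternatives for the mirrored rule, chosen after seeing the data, gave 1769 regions with TMM scaling and 2901 to 6822 with 1 library left out, against 2721.

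Over the whole table the 7842 calls (70.0% higher) became 5756 with no filter (80.7% higher), 6914 (95.2% higher) under the deposited scaling alone, which moves the median of all regions by 0.22 log2 units, 6925 with edgeR and 7612 with DESeq2. Lower calls, 2354, became 1110 with no filter, 333 under the deposited scaling, 2020 with edgeR and 2449 with DESeq2; counting them apart was decided after seeing the data. Leaving out a library gave 2171 to 13647 calls and 361 to 4611 lower calls. Without WT replicates 1 and 2 the lower calls were 4611 and 4113, and without GrnKO replicates 1 and 2 they were 361 and 759. Input calls were 0 to 6711, with 6711 without GrnKO replicate 2; in these fits the lone library is assumed to vary like the others. The cause was not tested. The correlation of deviations between libraries of the same replicate number was 0.034. With 2 pools per genotype it cannot show whether the numbers pair the pools. With the replicate block the calls were 11391, 3988 of them lower. Depth limits the inputs most, where 3 tags are 2.08 to 7.36 scaled tags.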
